A study of Macaca fascicularis with 2 samples.

Results

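The genes described here are 6 regulators of transcription that are named for their roles in oocytes: FIGLA, NOBOX, SOHLH1, SOHLH2, LHX8 and TAF4B. The rule was this list of names, and 5 of the 6 have a row among the 18446 genes of the count table. SOHLH2 is not analysed here. RNA was counted as unique molecular identifiers (UMIs) in single cells from the dissociated whole ovaries of 2 fetuses of the cynomolgus monkey Macaca fascicularis, 1 at embryonic day 84 (E84) and 1 at E116. Each library held both ovaries of 1 fetus, so there was no replicate animal at either stage. The barcodes carry an ending, 1 or 2, whose stage is not given in the sources used here. All 20967 cells, including the 4675 with more than 3000 detected genes, were therefore taken as 1 pooled sample, and the endings served only as unlabelled batches.

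In the fetal ovary, germ cells divide by mitosis, respond to retinoic acid (RA), enter meiotic prophase and then arrest as oocytes that become enclosed in follicles. FIGLA and SOHLH1 are basic helix-loop-helix factors, NOBOX and LHX8 are homeodomain factors, and TAF4B is a germ cell-enriched subunit of the general transcription factor TFIID. From mouse genetics, all 5 are known to be needed for oocytes to form, survive or enter follicles, and FIGLA is known for switching on the zona pellucida genes that make the egg coat.

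The table held 148824177 UMIs, with a median of 3756 per cell. The 10621 cells of ending 1 had a median of 3130 UMIs and the 10346 cells of ending 2 a median of 4556, and 27 barcodes occurred with both endings. Clustering found 6425 germ cell-like cells in 11 sub-clusters. By markers that include none of the 5 genes, 344 cells were mitotic-like and 1458 RA-responsive-like. A further 1328 were meiotic-like and 680 oogenesis-like, and 2615 germ cells stayed unnamed. Levels are given as CPM, the UMIs of a gene summed over a group of cells and scaled to a common total. Of the defining markers, the pluripotency factor NANOG (mitotic-like step) stood at 199 CPM in its own step. The synaptonemal complex gene SYCP1 (meiotic-like step) reached 935 CPM there, and the egg gene ZAR1 (oogenesis-like step) 553 CPM. Because markers gave the steps their names, these levels are no separate check of the names. For the RA-responsive-like step no marker level is given here. The steps were split unevenly over the endings, with 336 of the 344 mitotic-like cells in ending 1 and 659 of the 680 oogenesis-like cells in ending 2. Step and ending can thus hardly be told apart at both ends of the series, and values within each ending are given where both hold enough cells. The somatic comparison was 11425 cells of 7 named classes, of which granulosa-like cells (3933) and stroma-like cells (4560) were the largest. Every interval below is an exact 95% interval that covers counting error and not how animals differ. No test between groups was possible.

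FIGLA, NOBOX, SOHLH1 and LHX8 were highest in oogenesis-like cells, and TAF4B was highest in meiotic-like cells. Of all genes tested, 23.2% had their highest step in oogenesis-like cells, 31.4% in meiotic-like, 19.7% in RA-responsive-like and 25.7% in mitotic-like cells, and no member was highest in the earlier pair of steps. The first 4 genes were each at least 4-fold higher in oogenesis-like than in meiotic-like cells, as were 7.82% of the 14801 genes with 20 or more UMIs in germ cells. In ending 2 alone, which holds nearly all oogenesis-like cells, only NOBOX passed 4-fold, and the log2 ratios of FIGLA, SOHLH1 and LHX8 were 1.49, 1.14 and 1.39. None of the 5 was at least 4-fold lower, against a background of 9.34%. The median log2 ratio of the 5 was 2.08, while that of all genes tested was −0.31. Between meiotic-like and RA-responsive-like cells, FIGLA, NOBOX and SOHLH1 were at least 4-fold higher, as were 5.14% of all genes. Within ending 1 the ratio of SOHLH1 was 2.96-fold (1.48–6.11), and within ending 2 it was 16.8-fold (8.22–39.8). None was lower, against 3.11%. No member passed 4-fold in either direction between RA-responsive-like and mitotic-like cells, where 3.68% of all genes were higher and 5.83% lower. From mitotic-like to oogenesis-like cells, FIGLA, NOBOX, SOHLH1 and LHX8 were at least 4-fold higher (9.02% of all genes) and none was lower (10.5%).

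**Figure D1:**
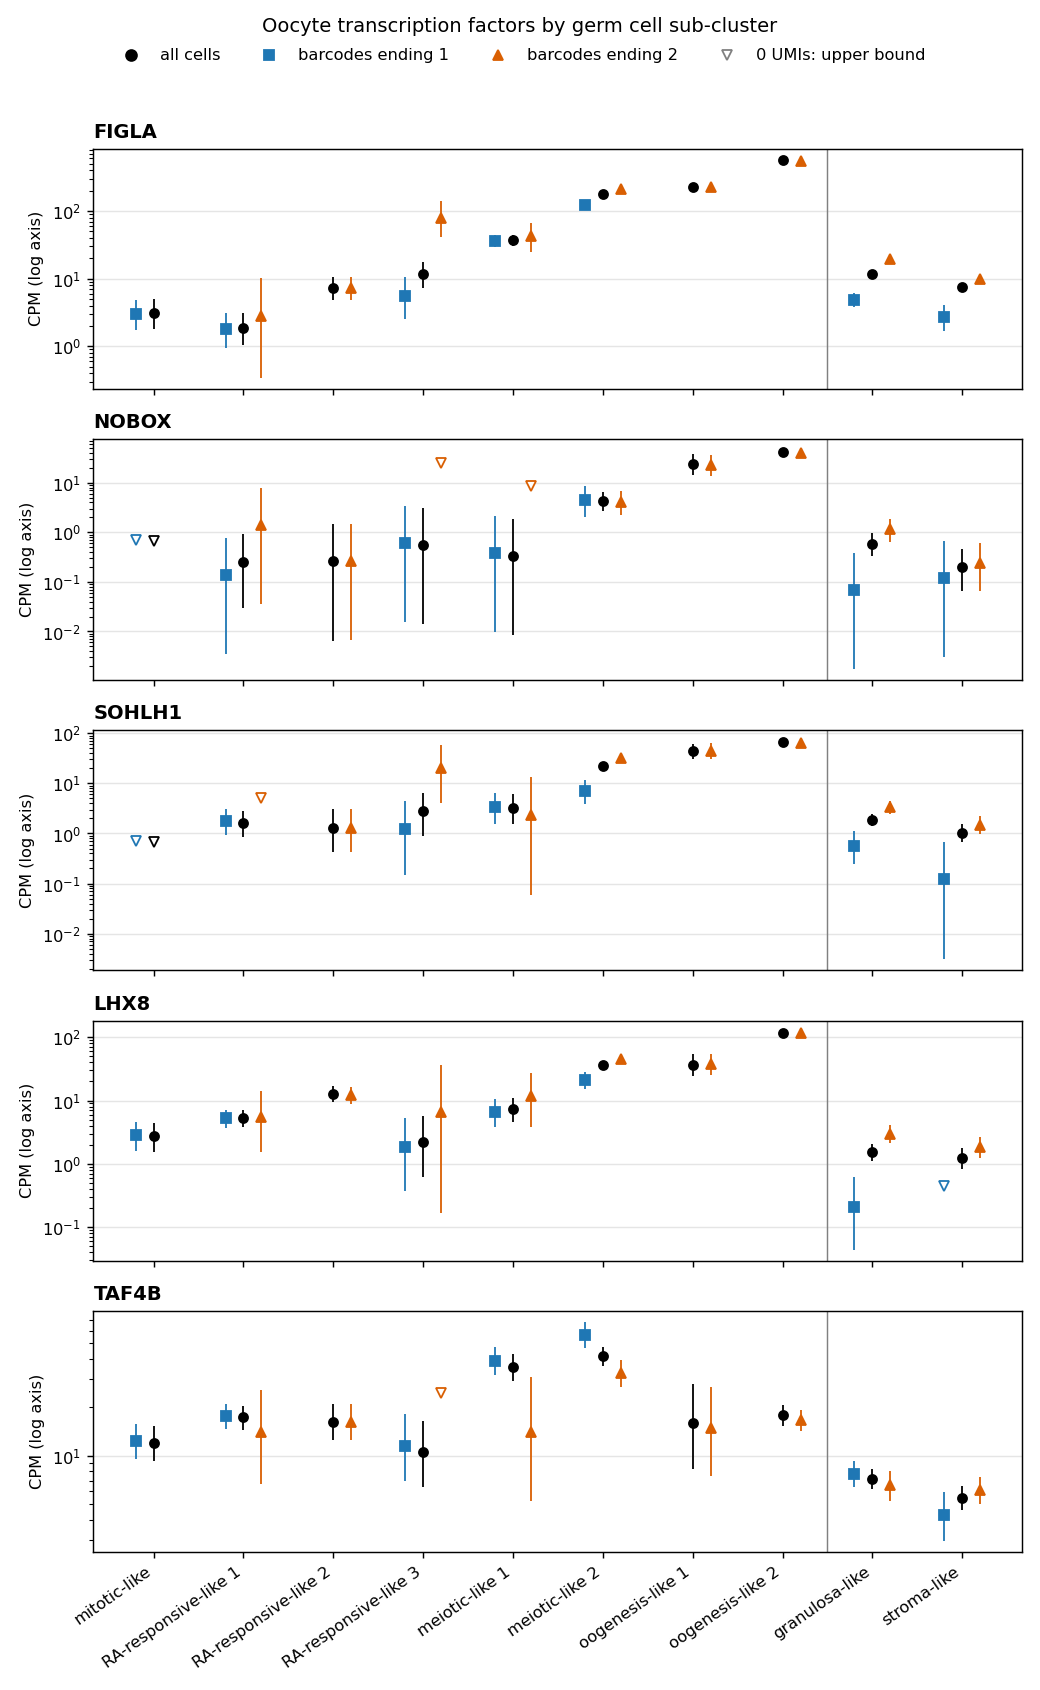
Level of each gene, as CPM on a log axis, in 8 germ cell sub-clusters ordered by step and in granulosa-like and stroma-like cells. Black points are all cells, blue squares ending 1 and orange triangles ending 2, shown for groups of 20 or more cells with exact 95% counting intervals, and open triangles mark upper bounds of groups with 0 UMIs. FIGLA, NOBOX, SOHLH1 and LHX8 rise to their highest points in oogenesis-like cells, while TAF4B peaks at 41.5 CPM in the second meiotic-like sub-cluster.

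FIGLA was at 3.08 CPM (1.79–4.93, 17 UMIs) in mitotic-like cells and at 4.69 CPM (3.61–5.99, 64 UMIs) in RA-responsive-like cells. Its level was 127 CPM (119–135) in the meiotic-like step and 540.4 CPM (527–554) in the oogenesis-like step. The mitotic-like and RA-responsive-like levels overlapped, and both lay below the 8.25 CPM of the somatic classes. The meiotic-like level was 27.0-fold above the RA-responsive-like one, and the oogenesis-like level was 4.26-fold above the meiotic-like one. Within the meiotic-like cells of each ending, FIGLA was at 73.5 CPM in ending 1 and 191 CPM in ending 2.

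The meiotic-like cells fell into 2 sub-clusters that differed in FIGLA, in depth and in ending. Median depths of the first and second were 1995 and 13984 UMIs per cell, and 891 of 965 and 173 of 363 cells were of ending 1. The part of depth in the differences between them was not tested. The first, of 965 cells, held FIGLA at 37.1 CPM (30.6–44.6), and the second, of 363 cells, at 177 CPM (166–189), which is 4.77-fold higher. The first also held more of the 9 stroma markers, at 720 CPM in sum against 189 CPM in the second and 21913 CPM in stroma-like cells, all 9 with UMIs in both. By ending, these sums were 805 and 247 CPM in ending 1, and 191 and 154 CPM in ending 2. Over both endings the 10 granulosa markers stood at 110.4 and 121 CPM, and the part of such RNA in the FIGLA difference was not tested. The difference had the same direction in both endings, with log2 ratios of 1.75 in ending 1 and 2.31 in ending 2. Among cells with more than 5000 UMIs, FIGLA was at 0 UMIs in 124 of 135 cells of the first sub-cluster and in 136 of 332 cells of the second. In the second, the median cell held 68.0 CPM and the highest 1586 CPM, so cells without any FIGLA UMI and cells at oocyte levels lay in the same sub-cluster. In the oogenesis-like sub-cluster with the deeper cells, FIGLA was at 0 in 3 of 249 such cells, with a median of 541 CPM and a highest value of 2304 CPM.

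After thinning to 2000 UMIs per cell, a FIGLA UMI was found in 0.882% of mitotic-like cells, 1.23% of RA-responsive-like cells, 14.2% (11.9–16.7) of meiotic-like cells and 59.2% (54.1–64.2) of oogenesis-like cells. Granulosa-like cells, which do not make FIGLA in the textbook view, stood at 1.61% and stroma-like cells at 1.57%, with unthinned median depths of 4826 and 3748 UMIs. The mitotic-like and RA-responsive-like shares did not exceed that background. The thinning left out 4, 316, 483 and 295 shallower cells of the 4 steps in that order. Without thinning, 57.9% of the second meiotic-like sub-cluster and 92.1% of the deeper oogenesis-like sub-cluster held a FIGLA UMI.

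NOBOX, a homeodomain factor of oocytes, had no UMI in mitotic-like cells, with an exact upper bound of 0.668 CPM (3 counts over the group would be 0.543 CPM). It was at 0.293 CPM (0.0799–0.751, 4 UMIs) in RA-responsive-like cells, within the interval of the 0.374 CPM of the somatic classes. In meiotic-like cells it was at 2.83 CPM (1.82–4.22, 24 UMIs), and 23 of these 24 UMIs lay in the second sub-cluster. That sub-cluster stood at 4.24 CPM against 0.329 CPM from the single UMI of the first, a log2 ratio of 3.69 (1.07–9.05). Oogenesis-like cells held 40.0 CPM (36.4–43.9), which is 14.1-fold above meiotic-like cells. Over mitotic-like cells the ratio was 73.7-fold with their 0 UMIs set to the floor of 3 counts, and its exact lower bound was 59.7-fold. The step to oogenesis-like cells was above 4-fold for NOBOX in both endings, with log2 ratios of 5.83 in ending 1 and 3.39 in ending 2. Thinned, a NOBOX UMI was found in 0.592% of meiotic-like and 8.31% of oogenesis-like cells, against 0.0657% of granulosa-like cells.

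SOHLH1, a helix-loop-helix factor of early oocytes, also had no UMI in mitotic-like cells. It was at 1.69 CPM (1.07–2.53, 23 UMIs) in RA-responsive-like cells, whose interval holds the somatic level of 1.29 CPM. Meiotic-like cells reached 15.7 CPM (13.2–18.6) and oogenesis-like cells 64.0 CPM (59.4–68.9), a 4.07-fold step with an interval on the log2 scale of 1.76 to 2.31. The meiotic-like level lay mostly in the second sub-cluster, at 22.7 CPM (18.8–27.1) against 3.29 CPM (1.58–6.04) in the first. In that second sub-cluster the endings differed, with 6.93 CPM in ending 1 and 32.0 CPM in ending 2. Within ending 1 the log2 ratio of the sub-clusters was 1.01 (−0.30–2.40), so there no difference was detectable at this depth, while within ending 2 it was 3.76 (1.25–9.08), from 1 UMI in the first sub-cluster. Thinned, 1.78% of meiotic-like and 12.5% of oogenesis-like cells held a SOHLH1 UMI, against 0.197% of granulosa-like cells.

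LHX8, a LIM-homeodomain factor needed for primordial follicles, was above the somatic classes in every step. Over the 4 steps in order it was at 2.72 CPM (1.52–4.48, 15 UMIs), 6.96 CPM (5.63–8.51, 95 UMIs), 26.2 CPM (22.9–29.9) and 110.5 CPM (104–117). The somatic classes together held 1.2 CPM, and the single classes lay between 0.529 CPM (erythroid-like) and 1.53 CPM (granulosa-like). The RA-responsive-like level was 2.57-fold above the mitotic-like one, with an interval on the log2 scale of 0.56 to 2.25. Within ending 1, which holds nearly all mitotic-like cells, the ratio was 1.74-fold and its log2 interval, −0.07 to 1.75, included 0. The RA-responsive-like sub-clusters were uneven, at 5.26 CPM (3.79–7.11), 12.7 CPM (9.37–16.8) and 2.23 CPM (0.608–5.71). They also differed in depth, with medians of 12431, 18332 and 2126 UMIs per cell. Of their cells, 529 of 581, 3 of 181 and 633 of 696 were of ending 1. Within ending 2 the LHX8 levels were 5.59 CPM (1.52–14.3), 12.1 CPM (8.84–16.1) and 6.65 CPM (0.168–37.0), with overlapping intervals. The parts of depth and ending in the unevenness were not tested. In the first meiotic-like sub-cluster LHX8 stood at 7.23 CPM (4.53–10.9), no higher than in RA-responsive-like cells, and in the second at 36.9 CPM (31.9–42.3). The shallower oogenesis-like sub-cluster, with a median of 1106 UMIs per cell, held LHX8 at 37.1 CPM (24.6–53.5). It did not differ detectably from the second meiotic-like sub-cluster, with a ratio of 1.01 (0.651–1.5). The deeper oogenesis-like sub-cluster was 3.13-fold above the shallower one, at 116 CPM. Thinned, 0.882%, 1.49%, 3.08% and 16.9% of the cells of the 4 steps held an LHX8 UMI, against 0.361% of granulosa-like cells.

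TAF4B, the TFIID subunit, was found in every step and in somatic cells, and its highest step was meiotic-like. Over the 4 steps in order it stood at 12 CPM (9.24–15.2), 16.1 CPM (14.1–18.4), 39.3 CPM (35.2–43.8) and 17.7 CPM (15.4–20.4). Over all cells the RA-responsive-like and oogenesis-like levels were not distinguishable, while the meiotic-like level was 2.44-fold above the former. Within ending 2 the RA-responsive-like and oogenesis-like levels were 15.4 CPM (12.05–19.4) and 16.45 CPM (14.13–19.05). Within ending 1 they were apart, at 16.5 CPM (13.95–19.39) and 81.9 CPM (48.5–129.4), the latter from 21 cells. Its 2 meiotic-like sub-clusters stood at 35.5 and 41.5 CPM, with a log2 ratio of 0.23 (−0.11–0.57) over all cells. Within the endings the second was higher, by log2 ratios of 0.54 (0.14–0.94) in ending 1 and 1.20 (0.04–2.68, from 6 UMIs in the first) in ending 2. The oogenesis-like level was 0.452-fold the meiotic-like level over all cells and was lower in ending 2, with a log2 ratio of −0.89 (−1.24 to −0.54). In ending 1 the log2 ratio was 0.81 (0.03–1.51), the opposite direction, from 18 UMIs in only 21 oogenesis-like cells. Among the somatic classes TAF4B ranged from 1.06 CPM in erythroid-like to 8.27 CPM in macrophage-like cells, with 7.15 CPM in granulosa-like cells. Thinned, 2.65%, 3.24%, 7.10% and 3.64% of the cells of the 4 steps held a TAF4B UMI, against 1.41% of granulosa-like cells.

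The order of onset was set as the first step in which a gene reached 10% of the level of its highest step, with its interval above that of the somatic classes. By this rule TAF4B came first, already in mitotic-like cells at 30.4% of its highest level. FIGLA, SOHLH1 and LHX8 followed in meiotic-like cells, at 23.5%, 24.6% and 23.7%. NOBOX was last, with 7.08% in meiotic-like cells and its onset in oogenesis-like cells. Without cells over 3000 genes or without those over 10% mitochondrial UMIs its onset joined the meiotic-like step, and in ending 1 alone FIGLA and SOHLH1 joined it in the oogenesis-like step. LHX8 was nearest to the limit one step earlier, at 6.30% in RA-responsive-like cells, where FIGLA was at 0.868%, NOBOX at 0.733% and SOHLH1 at 2.64%. The grouping of FIGLA, SOHLH1 and LHX8 into 1 step depended on the limit: at 25% these 3 and NOBOX all had their onset in oogenesis-like cells. Taken over sub-clusters at 10%, LHX8 moved to the second RA-responsive-like sub-cluster, at 10.9%. Of the 181 cells there, 178 were of ending 2, and the part of the ending in this earlier onset was not tested. LHX8 was below the limit again in RA-responsive-like sub-cluster 3, at 1.92%, and in meiotic-like sub-cluster 1, at 6.23%. By the same rule over sub-clusters, FIGLA, SOHLH1 and NOBOX all had their onset in the second meiotic-like sub-cluster, at 31.4%, 34.6% and 10.3%. TAF4B stayed in mitotic-like cells.

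Along a diffusion pseudotime, a measure of distance from the mitotic-like cells through the clustering space, the 3810 cells of the 4 steps were cut into 10 bins of 381 cells. Median pseudotime was 0.6875 and 0.706 in the first and second meiotic-like sub-clusters, which are numbered by it. The onset at 10% of the highest bin was bin 1 for TAF4B, bin 8 for FIGLA, SOHLH1 and LHX8, and bin 9 for NOBOX. FIGLA was between 1.74 and 10.4 CPM in bins 1 to 5, then at 26.0, 47.4 and 92.6 CPM in bins 6, 7 and 8, and at 534 CPM in bin 9. NOBOX had 0 UMIs in bins 6 and 7, 2.52 CPM in bin 8 and 41.3 CPM in bin 9. SOHLH1 went from 6.14 CPM in bin 7 to 10.1 CPM in bin 8 and 74.2 CPM in bin 9. These 3 genes thus had their largest step between the same neighbouring bins, and none of the 3 was higher in bin 10 than in bin 9. LHX8 differed, with 28.2, 61.6 and 117 CPM in bins 8, 9 and 10. TAF4B rose earlier, from 18.1 CPM in bin 5 to 46.5 CPM in bin 7, and fell to 15.5 CPM in bin 10. Bin 8 held 63.8% cells of ending 1 and bin 9 held 7.35%, so the largest step coincided with the change of ending, and the part of the ending in it was not tested.

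**Figure D2:**
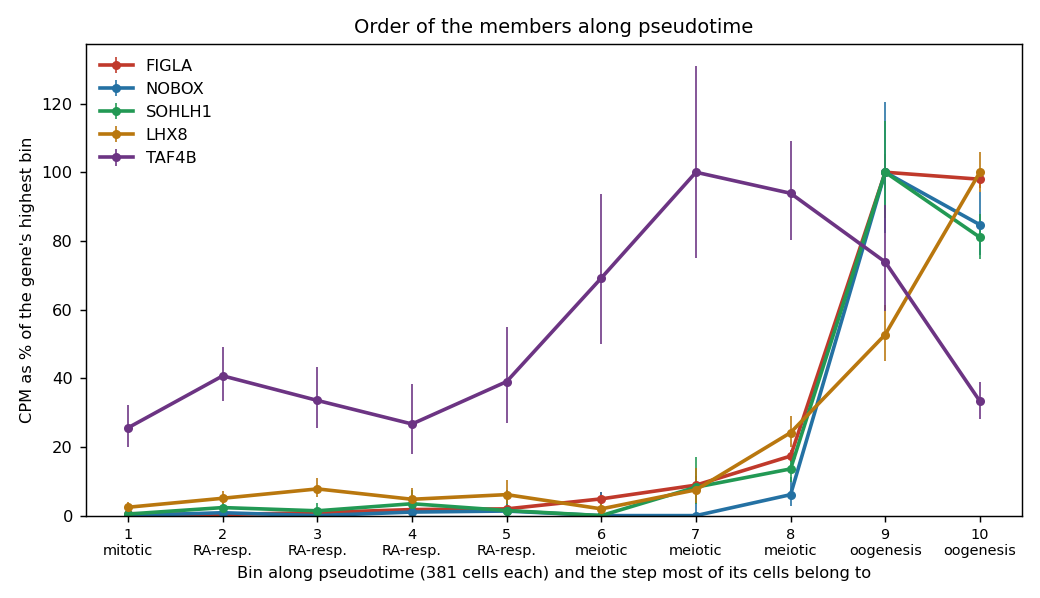
Level of each gene in 10 pseudotime bins of 381 cells, as percent of its highest bin, with exact 95% counting intervals on the same scale. TAF4B is the only curve with its maximum in bin 7, FIGLA, NOBOX and SOHLH1 step up between bins 8 and 9, and LHX8 goes on rising to bin 10.

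Low levels in the early steps were also set beside the somatic cells of the same ending, a comparison added after the data were seen, because somatic levels of these genes differed between endings. FIGLA was at 3.05 CPM in the somatic classes of ending 1 and 12.1 CPM in those of ending 2, and LHX8 at 0.122 and 1.99 CPM. In mitotic-like cells of ending 1, FIGLA was 0.984-fold (0.542–1.68) the somatic level, and in RA-responsive-like cells it was 0.805-fold (0.483–1.29) in ending 1 and 0.745-fold (0.530–1.02) in ending 2. Over each whole step FIGLA was therefore not detectable above the somatic level before the meiotic-like step, where it was 24.1-fold and 15.9-fold above it. The exception within a step was the third RA-responsive-like sub-cluster in ending 2, at 79.7 CPM (41.2–139) and 6.61-fold (3.39–11.6) the somatic level, from 12 UMIs in 7 of 63 cells. LHX8 was 23.1-fold (7.35–95.5) above the somatic level in mitotic-like cells of ending 1, from 15 UMIs against 4. In RA-responsive-like cells it was 40.2-fold (14.6–154) above it in ending 1 and 5.49-fold (3.81–7.83) in ending 2. LHX8 thus exceeded the somatic level of its own ending in the earliest step that could be compared, although its level there was 2.46% of its highest.

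SOHLH1 was 4.99-fold (2.14–12, 15 UMIs) above the somatic level in RA-responsive-like cells of ending 1, but at 0.860-fold (0.360–1.77) in ending 2. For NOBOX, 2 UMIs in RA-responsive-like cells of each ending gave ratios of 2.44 (0.204–21.3) and 0.736 (0.0847–2.94), which show no difference at this depth. TAF4B was 1.87-fold (1.40–2.48) above the somatic level in mitotic-like cells of ending 1, and 2.49-fold and 2.54-fold above it in RA-responsive-like cells. ZAR1, an abundant egg transcript and a naming marker of the last step, was 1.38-fold the somatic level in RA-responsive-like cells of both endings and 0.547-fold in mitotic-like cells of ending 1. Per ZAR1 UMI, RA-responsive-like cells held 1.09 LHX8 UMIs (2.59 in ending 1 and 0.729 in ending 2) and the somatic classes 0.175, while FIGLA UMIs stood at 0.736 per ZAR1 UMI in RA-responsive-like cells and at 1.21 in the somatic classes.

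**Figure D3:**
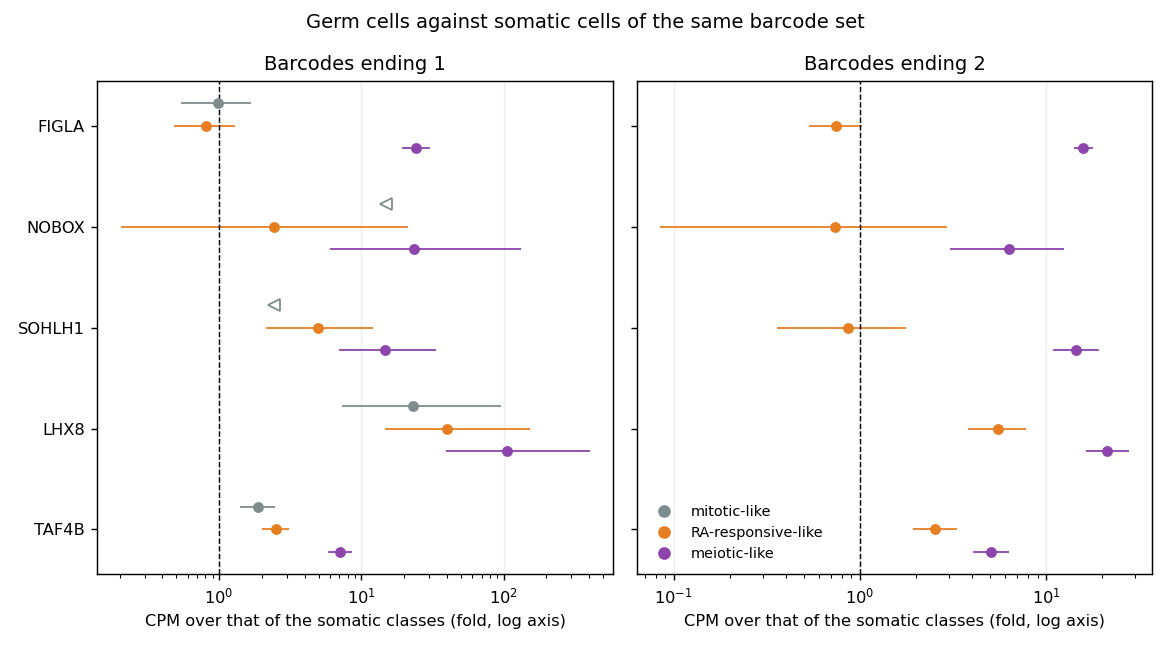
Fold of each gene in mitotic-like, RA-responsive-like and meiotic-like cells over the named somatic classes of the same barcode ending, on a log axis with exact 95% counting intervals. Open triangles are upper bounds of groups with 0 UMIs, and mitotic-like cells of ending 2 are too few to show. FIGLA sits between 0.745-fold and 0.984-fold before the meiotic-like step, while LHX8 is above 1-fold at every step shown.

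The UMIs of 4 of the genes were concentrated in few cells. Oogenesis-like cells, 680 of 20967, held 70.9% of all 8464 FIGLA UMIs, 82.4% of 539 NOBOX UMIs, 66.5% of 1068 SOHLH1 UMIs and 69.3% of 1771 LHX8 UMIs. For TAF4B the share was 12.5% of 1573 UMIs, while the somatic classes held 31.0% and meiotic-like cells 21.2%. Somatic FIGLA was spread in different ways. In stroma-like cells 189 UMIs lay in 175 cells, and 2 cells held 3 or more. In granulosa-like cells 324 UMIs lay in 166 cells, of which 22 cells with 3 or more UMIs held 154 and 1 cell held 20. Whether these granulosa-like barcodes also captured a germ cell was not tested, and the doublet caller used marked 0 cells in either ending.

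Within oogenesis-like cells the genes were detected side by side. Of the 318 cells of the deeper sub-cluster, 61 (19.2%) held a UMI of all 5 genes and 81 (25.5%) of 4, with a mean of 3.06 genes per cell. In the second meiotic-like sub-cluster the mean was 1.55 and 1 cell held all 5. These counts follow depth as well as expression. After thinning to 2000 UMIs the means of these sub-clusters were 1.17 and 0.408 in that order, against 0.0365 genes per granulosa-like cell. Over the whole oogenesis-like step the mean was 1.704 before thinning and 1.005 after it, and over the meiotic-like step 0.584 and 0.268. Thinning also left out the shallower cells. In the thinned second meiotic-like sub-cluster an LHX8 UMI was found in 9 of 82 cells with FIGLA (11%, 5.14–19.8) and in 13 of 281 without (4.63%, 2.49–7.78). In the thinned deeper oogenesis-like sub-cluster LHX8 was found in 39 of 206 cells with FIGLA and 21 of 96 without, and NOBOX in 26 of 206 (12.6%) and 5 of 96 (5.21%). The intervals of these shares overlapped, and the differences were not tested.

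Cells with more than 3000 genes carried most of what was counted for the 5 genes. They held 83.9% of FIGLA, 84.2% of NOBOX, 80.6% of SOHLH1, 88.8% of LHX8 and 72.8% of TAF4B UMIs, against 64.2% of all UMIs and 67.4% for the median gene. In oogenesis-like cells above the limit FIGLA was at 563 CPM and in those up to it at 348 CPM, and LHX8 was at 117 and 56.4 CPM. Within the deeper oogenesis-like sub-cluster alone, FIGLA was at 563 and 564 CPM, so that difference lay between the sub-clusters. SOHLH1, at 64.1 and 62.5 CPM, was nearly level over the limit. Within the first meiotic-like sub-cluster the order was the other way, with FIGLA at 4.70 CPM (1.28–12) in 56 cells above the limit and at 49.7 CPM (40.8–59.9) in 909 cells up to it.

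To follow the genes with the UMI total of a cell, the 305 cells of ending 2 in the deeper oogenesis-like sub-cluster were cut by total UMIs into 4 groups of 76 or 77 cells, with medians of 2896, 12224, 36378.5 and 78502 UMIs. Cell size itself was not measured, and this split was added after the data were seen. Of the 5 genes, LHX8 alone was higher in group 4 than in group 3. LHX8, at 86.8, 69.8, 102 and 132 CPM over the groups, was 1.3-fold (1.13–1.49) higher in group 4 than in group 3. FIGLA, at 583, 566, 646 and 515 CPM, was 0.798-fold (0.753–0.845). NOBOX, at 49.6, 58.9, 53.8 and 29.3 CPM, was 0.544-fold (0.436–0.679), and SOHLH1, at 120.0, 87.3, 108 and 38.3 CPM, was 0.356-fold (0.299–0.423). The steepest drop was that of TAF4B, from 29.3 to 8.71 CPM, or 0.297-fold (0.207–0.424). Between group 4 and group 1 the intervals of LHX8, FIGLA and NOBOX included 1. Their ratios were 1.52-fold (0.986–2.46), 0.884-fold (0.747–1.05) and 0.590-fold (0.329–1.16). SOHLH1 and TAF4B were lower in group 4 than in group 1, at 0.32-fold (0.217–0.488) and 0.301-fold (0.136–0.785). As references, ZAR1 was at 690.0, 461, 257 and 760.0 CPM over the groups and SYCP1 at 41.3, 34.9, 76.2 and 19.4 CPM, so neither changed in 1 direction with total UMIs.

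Counted per cell, the values were different, since a cell of group 4 held more UMIs in all. FIGLA went from 24.6 to 41.2 UMIs per cell between groups 3 and 4, LHX8 from 3.88 to 10.5 and NOBOX from 2.05 to 2.34. SOHLH1 went from 4.11 to 3.07 and TAF4B from 1.12 to 0.697. The lower CPM in group 4 thus went with a lower count per cell for SOHLH1 and TAF4B, and with a higher one for FIGLA. For NOBOX the counts per cell were close, from 156 UMIs in group 3 and 178 in group 4. No interval was computed for counts per cell. FIGLA was detected in 55 of 77 cells of group 1 and in all 76 of group 4.

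**Figure D4:**
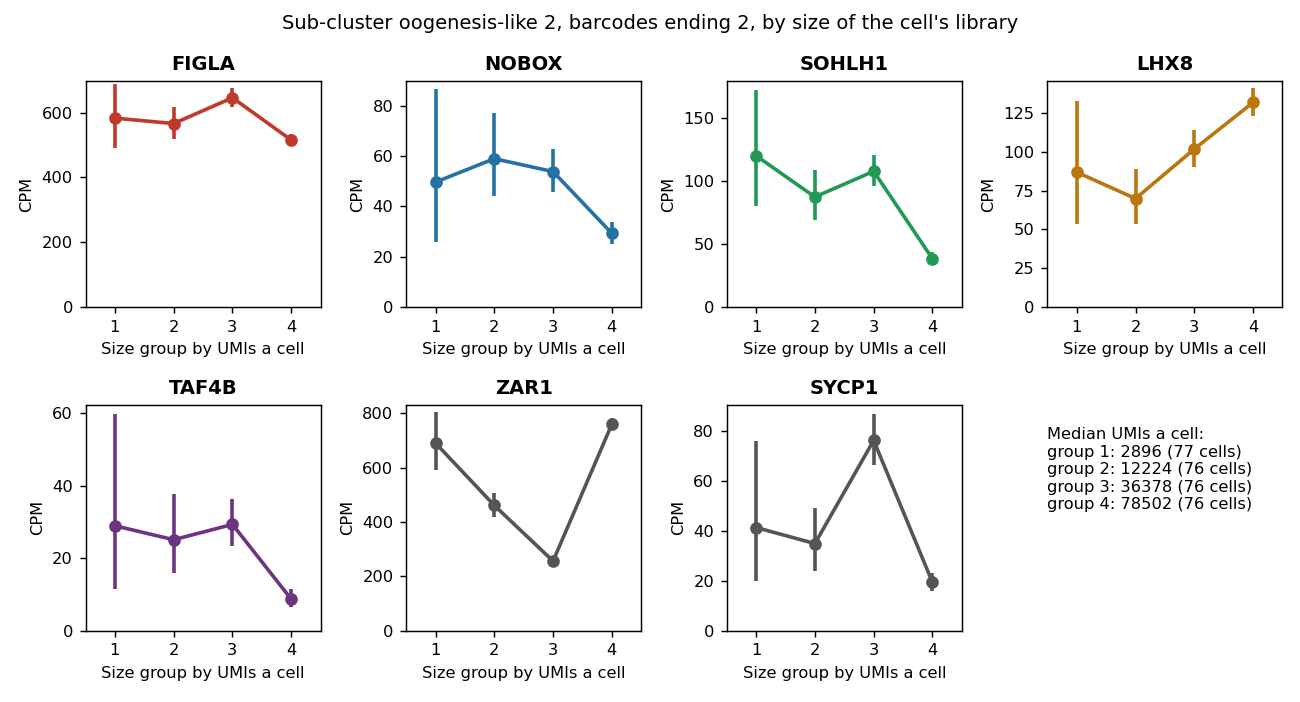
CPM of the 5 genes, ZAR1 and SYCP1 in 4 groups by UMI total (size groups) of the deeper oogenesis-like cells of ending 2, ordered by total UMIs, each on an axis from 0 with exact 95% counting intervals. From group 3 to group 4 LHX8 and ZAR1 go up, while FIGLA, NOBOX, SOHLH1, TAF4B and SYCP1 go down.

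Genes known to be lowered in mouse ovaries that lack one of these factors were counted from a list of 9, of which 7 have a row. All 6 of these that passed the filter of 20 UMIs were at least 4-fold higher in oogenesis-like than in meiotic-like cells, against the background of 7.82%. The filter counts UMIs of all germ cells, so a gene can pass it through oogenesis-like cells alone, and the count of 6 is a description. With a filter of 100 UMIs, 4 targets were left (ZP2, GDF9, KIT and NLRP14), and all 4 were called, against 7.16% of all genes. The zona pellucida gene ZP2 went from 2.24 to 71.1 CPM and the growth factor gene GDF9 from 24.0 to 370.0 CPM. NLRP14, a gene of the maternal cytoplasm, went from 2.12 to 133 CPM. ZP1 reached 2.79 CPM and MOS, the kinase of the egg's meiotic arrest, 3.15 CPM, so both stayed low. KIT, the receptor for the oocyte growth signal KITLG, differed in shape, with 103, 89.3, 22.2 and 120 CPM over the 4 steps in order. BMP15 had 9 UMIs in germ cells, all in oogenesis-like cells. Between the meiotic-like sub-clusters, where 4 of the 5 factors were at least 4-fold higher in the second against a background of 0.953%, none of the 6 targets was. That count of 4 holds for the pooled cells: within ending 1 the ratios were 3.36-fold for FIGLA, 2.02-fold for SOHLH1 and 3.28-fold for LHX8, and NOBOX rested on 1 UMI in the first sub-cluster. Within ending 2 FIGLA was 4.95-fold and LHX8 3.91-fold higher, while SOHLH1 had 1 UMI and NOBOX 0 in the first sub-cluster. No factor was 4-fold lower there, against 0.899%.

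Of 13 genes for partners and relatives, only TBPL2, the oocyte relative of the TATA-binding protein, was at least 4-fold higher in oogenesis-like than in meiotic-like cells, at 52.4 and 4.13 CPM, a share of the list near the 7.82% of all genes. Between the earlier steps TBPL2 was at least 4-fold lower, going from 14.7 CPM (mitotic-like) to 3.59 CPM (RA-responsive-like). The E-proteins, which pair with helix-loop-helix factors, changed less: TCF3 lay between 42.5 and 57.8 CPM and TCF12 between 42.1 and 75.2 CPM over the steps. As with TAF4B, the highest step of TAF4, TAF12, TAF9B, TBP, TCF12 and LDB1 was meiotic-like, which makes 6 of the 13 beside 31.4% of all genes. TAF12, a TFIID subunit, was at 248 CPM there and TBP at 57.4 CPM. In the other steps TAF12 lay between 85.6 and 114 CPM. The LIM relative LHX2 was a somatic gene here, at 187 CPM in the somatic classes and 10.7 CPM in oogenesis-like cells, while LHX6 reached 20.0 CPM in oogenesis-like cells. TCF4, LDB2, LHX9 and LDB1 were likewise highest in the somatic classes, at 266, 12.7, 23.5 and 31.5 CPM.

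Of 5 regulators of oocyte formation and survival, TP63, the guardian of oocyte DNA integrity, was at least 4-fold higher in oogenesis-like cells, at 66.0 CPM against 4.37 CPM, 1 gene of 5 beside the 7.82% of all genes. STAT3 was highest in mitotic-like cells among the steps, at 63.7 CPM, and higher still in the somatic classes, at 86.6 CPM. SUB1 was between 422 and 696 CPM over the steps, FOXO1 between 12.2 and 21.7 CPM, and FOXO3, known to hold primordial follicles dormant, between 0.721 and 1.61 CPM.

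**Figure D5:**
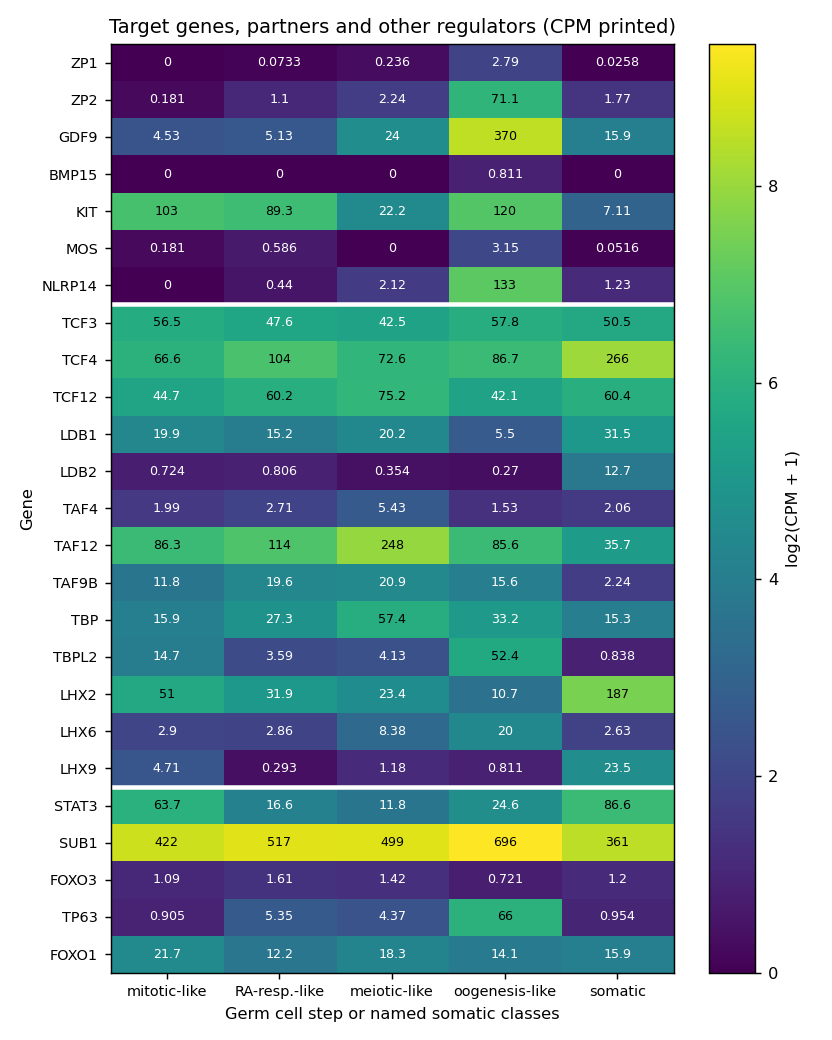
Heat map of the listed targets, partners and regulators, top to bottom, over the 4 steps and the named somatic classes, coloured by log2(CPM + 1) with the CPM printed in each cell. The 7 targets are brightest in the oogenesis-like column, at 370.0 CPM for GDF9, while the TFIID genes TAF12 and TBP are highest in the meiotic-like column.

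The genes whose pattern was most like each factor were taken by Pearson correlation of log2(CPM + 10) over 18 groups, the 11 germ cell sub-clusters and 7 somatic classes, among 10166 genes. These groups come from the same 2 libraries and differ in depth, so the values are descriptions. Over the germ cell sub-clusters alone, 2 of the 3 genes were named again for SOHLH1, 1 each for FIGLA, NOBOX and LHX8, and 0 for TAF4B. FIGLA was most like UPB1 (0.970), PNLDC1 (0.956) and MYH15 (0.955). SOHLH1 shared PNLDC1 (0.981), a gene that trims germline small RNAs, and B3GAT2 (0.962) and LDHAL6A (0.954) were next for it. For LHX8 the nearest were B3GAT2 (0.965), SYT5 and PPEF1 (both 0.956). NOBOX was nearest to NPM2 (0.986), an oocyte chromatin gene that is also one of the naming markers, then NTNG2 (0.980) and OXT (0.979). TAF4B stood apart, nearest to PARG (0.958), LIN9 (0.956) and GEMIN6 (0.953). Among themselves, FIGLA, NOBOX, SOHLH1 and LHX8 correlated between 0.883 and 0.956, and TAF4B with them between 0.246 and 0.569.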

How the data were processed

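The deposited table gives the count of UMIs for each gene in each cell, not normalized. Reads were aligned to Macaca_fascicularis_5.0 and counted by the authors (Cell Ranger 3.0.2 in the submitters' processing notes). No correction for free RNA is stated. The members and the gene lists were chosen with earlier results of these data known. The named genes are the 5 members in the table, all listed targets, partners and regulators, and the 3 genes most like each member. Cells of all sizes were clustered with Seurat 5.3.0 under R 4.3.3 (2000 variable genes without 30 genes of the members and lists, 18 components, 20 neighbours, resolution 0.6), and germ cell-like cells again at 0.55. A name needed 3 markers that were seen in 5% of a cluster's cells and exceeded the remaining cells 1.5-fold, with 10 CPM added to both. Cells were not removed as doublets, since Scrublet called 0.

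Levels are summed UMIs as CPM with exact Poisson intervals, shares have Clopper-Pearson intervals, and ratios have exact conditional binomial intervals. Counts are UMIs of 3′ ends and are not scaled by length, so genes are not ranked against each other by level. The floor is 3 counts. All used Python 3.11.15 with scipy 1.17.1 and scanpy 1.11.5. On simulated counts for 12944 genes (oogenesis-like over meiotic-like), 95.75% of the intervals held the true ratio. These counts were drawn from the same Poisson model that the intervals assume. The simulation thus checks the computation only, and not the uneven spread of UMIs over cells.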

Additional observations from a re-analysis of the deposited data

Results flagged for a closer look

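The log2 ratio of TAF4B between oogenesis-like and meiotic-like cells had opposite signs in the barcode endings, 0.81 in ending 1 and −0.89 in ending 2. The difference between them was not tested, and ending 1 rests on 21 oogenesis-like cells.

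The germ cells that no marker list named, which enter no comparison of steps, held all 5 genes above the somatic level: FIGLA at 33.7 CPM, NOBOX at 1.88 CPM, SOHLH1 at 5.50 CPM, LHX8 at 6.70 CPM and TAF4B at 14.2 CPM. Their median depth was 945 UMIs, and the 10 granulosa markers stood at 745 CPM in sum, against 117 CPM in meiotic-like cells. The part of such RNA in these levels was not tested. Cells of no named class outside the germ cells held FIGLA at 11.6 CPM, against 8.25 CPM in the named somatic classes. Of these 3117 cells 3009 are of ending 2, where they held 11.8 CPM (10.3–13.5) and the named somatic classes 12.1 CPM, so within the ending they were not higher.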

How the results depend on the processing

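No paired analysis was possible because there is 1 library per stage and its barcodes are not matched to the stages. The onset step (1 mitotic-like, 2 RA-responsive-like, 3 meiotic-like, 4 oogenesis-like) kept its value in 66 of 80 recomputations, over 16 settings and the 5 genes. With cells over 3000 genes left out it became 3 for NOBOX and 2 for LHX8 and TAF4B, and with cells over 10% mitochondrial UMIs left out 3 for NOBOX. Ending 1 alone gave 4 for FIGLA and SOHLH1, and ending 2 alone gave 2 for TAF4B. In ending 2 the 8 mitotic-like cells held 0 UMIs of TAF4B and of LHX8, with an upper bound of 18.98 CPM for each. An onset in step 1 could thus hardly be seen in that ending. Limits of 25% and 50% gave 4 for FIGLA, SOHLH1 and LHX8, and 50% gave 3 for TAF4B. Set above the somatic classes of ending 1, an alternative chosen after seeing the data, the onset was 3 for NOBOX, 2 for SOHLH1 and 1 for LHX8, and above those of ending 2 it was 3 for NOBOX and 2 for LHX8 and TAF4B. The number of genes at least 4-fold higher in oogenesis-like than in meiotic-like cells was 4, and 1 (NOBOX) in ending 2 alone. It was 3 without cells over 3000 genes (FIGLA lost), without cells over 10% mitochondrial UMIs (LHX8 lost), and at resolutions 0.4 and 1.0 and without the 8% highest doublet scores (SOHLH1 lost). The log2 ratio of TAF4B turned to 0.81 in ending 1 alone. Over all alternatives the log2 ratio lay between 1.49 and 3.36 for FIGLA, 2.61 and 5.83 for NOBOX, 1.14 and 4.4 for SOHLH1, and 1.39 and 2.66 for LHX8. The cause of these changes was not tested. Of 40 shares of cells under other thinning 28 moved beyond their interval. Under 10 other settings of the likeness, 7 kept at most 1 of 3 named genes. Few UMIs of NOBOX and SOHLH1 were counted before the meiotic-like step, 4 and 23 in RA-responsive-like cells, so their levels there are imprecise.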
